A study of Mus musculus with 6 samples.

Results

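Integrins are cell surface receptors made of an alpha and a beta chain, and they tie the extracellular matrix to the cytoskeleton. The 10 genes described here are integrin beta 1 (Itgb1), the alpha chains Itga1, Itga3, Itga5, Itga6, Itga7, Itga9 and Itgav, the beta 5 chain Itgb5, and Itgb1bp2, which encodes melusin, a striated muscle protein that binds the cytoplasmic tail of integrin beta 1. They were chosen by symbol because integrin beta 1 is the reported partner of Tmem182, a membrane protein made in muscle. All 10 were found among the 19458 genes listed in each table, and all 10 were among the 12775 genes with enough reads to be tested.

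The libraries came from the gastrocnemius, the large calf muscle, of C57BL/6 mice aged 9 weeks. There were 3 libraries of mice with the genotype tmem182-/-, called knockout here, and 3 of wild-type mice, and the comparison asks which transcripts differ when Tmem182 is lost. The labels used here give neither the construction of the knockout allele nor the sex of the mice, and they leave unsaid whether every library is a mouse of its own. The p-values therefore measure the spread among these 6 libraries, part of which may be technical. The extraction text in the labels is about myoblast and myotube cultures, although the tissue is given as muscle.

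In muscle fibres the main laminin receptor pairs the alpha 7 chain with beta 1, and it runs beside the dystrophin complex as a link between the basement membrane and the contractile apparatus. Beta 1 also pairs with alpha 1 (collagen and laminin), alpha 3 and alpha 6 (laminins), alpha 5 (fibronectin), alpha 9 (tenascin C and osteopontin) and alpha v, while alpha v with beta 5 binds vitronectin. Many of these chains are also made by the endothelial, mural and connective tissue cells of a muscle. In bulk tissue, fewer cells of a type and less RNA per cell cannot be told apart.

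Total expected counts ran from 16212341 to 18672630 per library. Tmem182 was at 6.23, 4.30 and 2.17 FPKM (fragments per transcript length and library size) in knockout samples, against 147.48, 121.39 and 120.97 FPKM across the wild-type samples. Its log2 fold change was -5.02 (SE 0.30, edgeR quasi-likelihood adjusted p = 0.00392), and it was the 1 gene of all those tested that passed, although that call ended when knockout library 2 was left out (log2 fold change -5.11, edgeR adjusted p = 0.0716) and when wild-type library 3 was (log2 fold change -5.03, edgeR adjusted p = 0.0530). The source labels of knockout libraries 2 and 3 name Tmem genes with other numbers, but Tmem182 was low in both. Knockout library 1 stood apart: its composition factor (TMM) was 1.19 against 0.933 to 1.04, and it had the highest summed FPKM of the endothelial, mural, fibro-adipogenic progenitor, macrophage, Schwann cell and erythrocyte markers. Fast myosin Myh4, a gene of fast muscle fibres, was at 6876.36 FPKM in that library and at 11621.7 or more in each of the others.

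Promoter sequences are shown for Itgb1 and for Itgav, the gene of the other 9 whose level followed that of Itgb1 most closely over the 6 libraries. Both genes were chosen after their values were seen, and correlations among the other 9 were not computed. Each sequence is the 250 bases before the RefSeq transcript start on GRCm38.p6, 5′ to 3′ on the strand of the gene. Capitals mark the GC box GGGCGG or its reverse complement CCGCCC. The windows are chr8:128685404-128685653 on the plus strand for Itgb1 and chr2:83724147-83724396 on the plus strand for Itgav.
Itgb1: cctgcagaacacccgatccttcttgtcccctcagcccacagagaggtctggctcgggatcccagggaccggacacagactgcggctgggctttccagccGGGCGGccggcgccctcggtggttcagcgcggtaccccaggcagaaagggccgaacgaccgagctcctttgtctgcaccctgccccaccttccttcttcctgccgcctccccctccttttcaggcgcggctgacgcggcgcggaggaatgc
Itgav: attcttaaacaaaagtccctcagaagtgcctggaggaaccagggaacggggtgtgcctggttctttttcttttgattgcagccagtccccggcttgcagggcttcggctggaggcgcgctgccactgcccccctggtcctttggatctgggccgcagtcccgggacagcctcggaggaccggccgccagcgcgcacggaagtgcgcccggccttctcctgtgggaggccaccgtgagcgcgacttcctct
G and C made up 68.0% of the Itgb1 window and 64.4% of the Itgav window, against a median of 52.4% over 32851 RefSeq promoter windows of this length. The GC box occurred 1 time in the Itgb1 window and 0 times in the Itgav window, and 32.7% of all windows held at least 1. The E-box CANNTG, the letters that myogenic regulatory factors are known to bind, was found 0 times in both windows, against 66.2% of all windows with at least 1. TATAAA or its reverse complement TTTATA was in neither window and in 12.4% of all windows. These matches describe letters only. The RefSeq promoter table matched 7 of the 10 genes; Itga6, Itga7 and Itgb1bp2 had no entry.

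Of the 10 integrin genes, 0 passed the test over all genes in either direction, where 0.00783% of all genes passed (edgeR), 0 passed by DESeq2, where 0.047% of genes did, and 0 reached an unadjusted p under 0.05, where 3.55% of all genes did, 2.07% higher and 1.48% lower. The log2 fold change was above 0 for 7 and below 0 for 3 of them, with a median of 0.08, beside 51.1% of all genes above 0 and a median of 0.0046 over all genes. Without knockout library 1 the median was -0.05, and 4 of the 10 were above 0. The groups overlapped for all 10, both in FPKM and in TMM-scaled CPM, counts relative to library size, the scale on which 9.21% of all genes had groups that did not. Every adjusted p of the 10 genes was between 0.994 and 0.999. The 95% intervals of the log2 fold change reached no lower than -0.68 and no higher than 0.83, so a 2-fold difference between the group means lay outside the interval of each of the 10 genes.

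**Figure D1:**
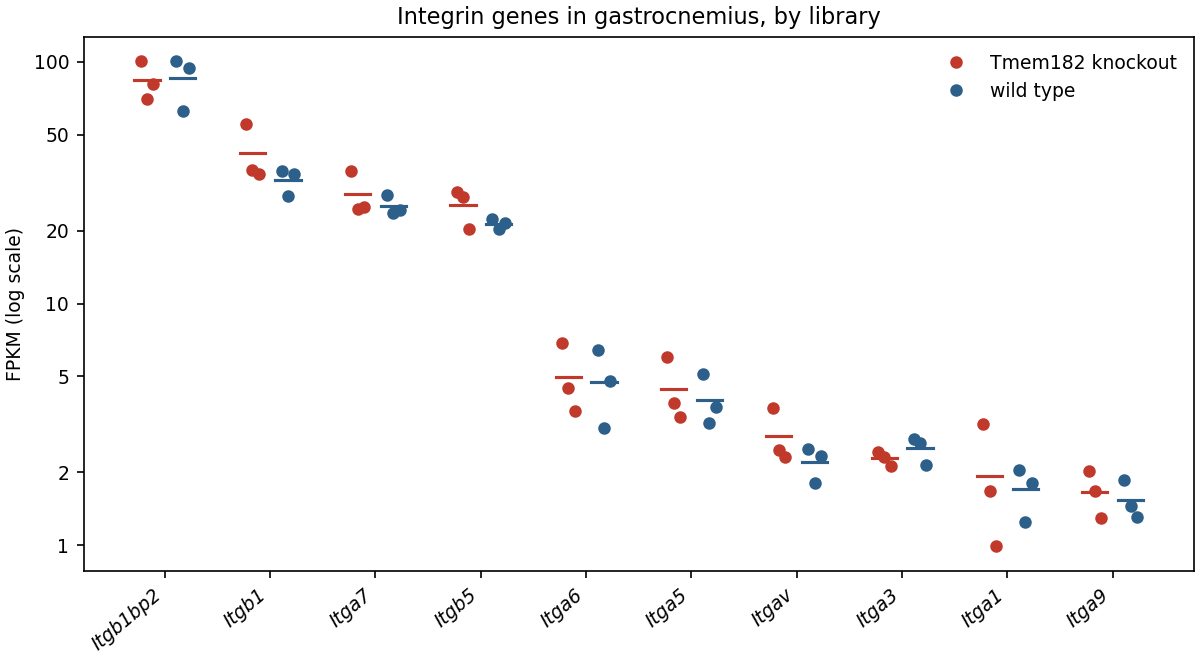
FPKM of the 10 integrin genes on a log axis, ordered by mean level; points are the 3 knockout (red, left) and 3 wild-type (blue, right) libraries and bars their means. The groups overlap for every gene, and Itgb1bp2, Itgb1, Itga7 and Itgb5 lie above 20 FPKM in all 6 libraries while the other 6 genes stay below 7.

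Expression was concentrated in 4 genes. Over the 6 libraries Itgb1bp2 averaged 85.0 ± 16.2 FPKM, Itgb1 37.2 ± 9.47, Itga7 26.9 ± 4.44 and Itgb5 23.5 ± 3.77 FPKM (SD, n = 6). Itga6 followed at 4.86 ± 1.51, Itga5 at 4.21 ± 1.10, Itgav at 2.52 ± 0.62, Itga3 at 2.40 ± 0.26, Itga1 at 1.82 ± 0.76 and Itga9 at 1.60 ± 0.30 FPKM (SD, n = 6), so that the mean of Itgb1bp2 was 53.0-fold that of Itga9. Itgb1bp2 lay above Itgb1 in 6 of 6 libraries with no overlap of their ranges, as did Itgb5 above Itga6, by 3.48- to 6.67-fold within a library. The order was less sure elsewhere: Itga7 was above Itgb5 in 5 of 6 libraries, Itga6 above Itga5 in 5, Itgav above Itga3 in 4, Itga3 above Itga1 in 5 and Itga1 above Itga9 in 3. Itgb1 exceeded Itga7 in 6 of 6 libraries, by 1.18- to 1.57-fold, and Itga5 exceeded Itgav in 6 of 6, although the ranges of each pair overlapped.

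Itgb1 encodes the beta chain common to the laminin, collagen and fibronectin receptors of muscle (Entrez 16412; chromosome 8, 128685654 to 128733200, plus strand of GRCm38, 4 annotated transcripts, no overlapping gene). It was at 55.57, 35.79 and 34.31 FPKM in knockout libraries 1, 2 and 3 and at 35.42, 27.74 and 34.39 FPKM in wild-type libraries 1, 2 and 3. Knockout library 1 was the highest and wild-type library 2 the lowest, and the other 4 libraries lay within 34.31 to 35.79 FPKM. On the TMM-scaled scale, which allows for the composition of library 1, it was at 198, 158 and 154 CPM in the knockout and 144, 122 and 156 CPM in wild type. Itgb1 averaged 41.9 ± 11.9 FPKM over the knockout libraries, against 32.5 ± 4.17 FPKM over the wild-type ones (SD, n = 3 each). On counts, edgeR gave a log2 fold change of 0.28 (SE 0.14, 95% interval -0.06 to 0.61, unadjusted p = 0.0938, edgeR adjusted p = 0.994). A two-sided exact permutation test on log2 FPKM gave p = 0.3, and no p below 0.1 is possible with 3 libraries a group. Leaving out knockout library 1 gave a log2 fold change of 0.15. The counts of Itgb1 were not whole numbers in 6 of 6 libraries, which RSEM gives where reads fit more than 1 gene. The tables give no isoforms, so the muscle form of beta 1 could not be told from the common one.

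Itga7 encodes the alpha 7 chain, the main laminin-binding alpha chain of the muscle fibre (Entrez 16404; chromosome 10, 128933818 to 128958282, plus strand). It was at 35.39, 24.67 and 25.18 FPKM across the knockout samples, against 28.25, 23.60 and 24.50 FPKM across the wild-type samples. Library 1 was the highest within each group, and the other 4 libraries spanned 23.60 to 25.18 FPKM. Its log2 fold change came to 0.08 (SE 0.10, 95% interval -0.16 to 0.31), the narrowest interval of the 10 genes. An antisense coding gene, Mettl7b, overlaps Itga7, and whether reads were counted by strand is not given here. Mettl7b itself reached at most 0.15 FPKM in any library.

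The other laminin-binding alpha chains, Itga6 and Itga3, differed from each other in how they varied. Itga6, a chain that endothelial and epithelial cells also use (Entrez 16403; chromosome 2, 71745616 to 71858416, plus strand), measured 6.85, 4.49 and 3.58 FPKM in knockout samples, against 6.40, 3.06 and 4.78 FPKM in wild-type samples. Libraries of the same genotype thus differed more than the group means of 4.97 ± 1.69 FPKM over the knockout libraries, against 4.75 ± 1.67 FPKM over the wild-type ones (SD, n = 3 each), and edgeR gave a log2 fold change of -0.01 (SE 0.25). Itga3 (Entrez 16400; chromosome 11, 95044474 to 95076801, minus strand) measured 2.42, 2.32 and 2.13 FPKM in knockout samples, against 2.76, 2.65 and 2.14 FPKM in wild-type samples. It was the steadiest of the 10 in FPKM, with a coefficient of variation of 10.8% over the 6 libraries, and the 1 gene whose highest FPKM was not in knockout library 1. Its log2 fold change of -0.20 (SE 0.13, 95% interval -0.52 to 0.11) was the lowest of the 10.

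Itga5 encodes the fibronectin receptor's alpha chain (Entrez 16402; chromosome 15, 103344286 to 103366763, minus strand). It was at 6.02, 3.86 and 3.40 FPKM in knockout samples, against 5.09, 3.19 and 3.73 FPKM in wild-type samples, highest in library 1 of each group, with a log2 fold change of 0.06 (SE 0.18). Itga1, a collagen-binding chain (Entrez 109700; chromosome 13, 114953096 to 115101964, minus strand), measured 3.16, 1.67 and 0.99 FPKM in knockout samples, from 310, 182 and 107 counts, against 2.05, 1.25 and 1.81 FPKM in wild-type samples, from 218, 141 and 198 counts. The knockout libraries held both the highest and the lowest Itga1 value, its coefficient of variation of 41.7% was the largest of the 10, and its log2 fold change of 0.08 (SE 0.33) had the widest interval, -0.68 to 0.83. Without knockout library 1 the value for Itga1 was -0.31. The coding gene Pelo lies within Itga1 on the same strand, at 7.39, 6.59 and 6.55 FPKM in knockout samples, against 6.25, 7.57 and 7.47 FPKM in wild-type samples. Itga9 (Entrez 104099; chromosome 9, 118606690 to 118901003, plus strand) measured 2.03, 1.67 and 1.30 FPKM in knockout samples, against 1.86, 1.45 and 1.31 FPKM in wild-type samples (log2 fold change 0.09, SE 0.16). Its groups covered nearly the same range.

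Itgav encodes the alpha v chain, which binds arginine-glycine-aspartate sites and pairs with beta 1, beta 3, beta 5, beta 6 or beta 8 (Entrez 16410; chromosome 2, 83724397 to 83806916, plus strand). It was at 3.68, 2.47 and 2.32 FPKM in knockout samples, against 2.51, 1.81 and 2.34 FPKM in wild-type samples, the same order of libraries in CPM as Itgb1. Its log2 fold change came to 0.26 (SE 0.15, 95% interval -0.07 to 0.60), or 0.16 without knockout library 1. Itgb5, its vitronectin-binding partner (Entrez 16419; chromosome 16, 33829665 to 33949338, plus strand), measured 28.96, 27.54 and 20.31 FPKM in knockout samples, against 22.30, 20.41 and 21.52 FPKM in wild-type samples. Here knockout libraries 1 and 2 were both above all wild-type libraries and knockout library 3 was below them all in FPKM, while in CPM it lay between wild-type libraries 1 and 3. The log2 fold change of Itgb5 was 0.19 (SE 0.12, 95% interval -0.10 to 0.47), and 0.07 without knockout library 2.

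Itgb1bp2 encodes melusin, a chaperone-like protein of heart and skeletal muscle (Entrez 26549; chromosome X, 101449088 to 101453541, plus strand, no overlapping gene). It was at 100.84, 70.38 and 81.04 FPKM in knockout samples, against 100.55, 62.74 and 94.74 FPKM in wild-type samples, so the range of the wild-type libraries contained 2 of the 3 knockout values. Itgb1bp2 averaged 84.1 ± 15.5 FPKM over the knockout libraries, against 86.0 ± 20.4 FPKM over the wild-type ones (SD, n = 3 each). On counts, edgeR gave a log2 fold change of -0.11 (SE 0.17, 95% interval -0.51 to 0.30).

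**Figure D2:**
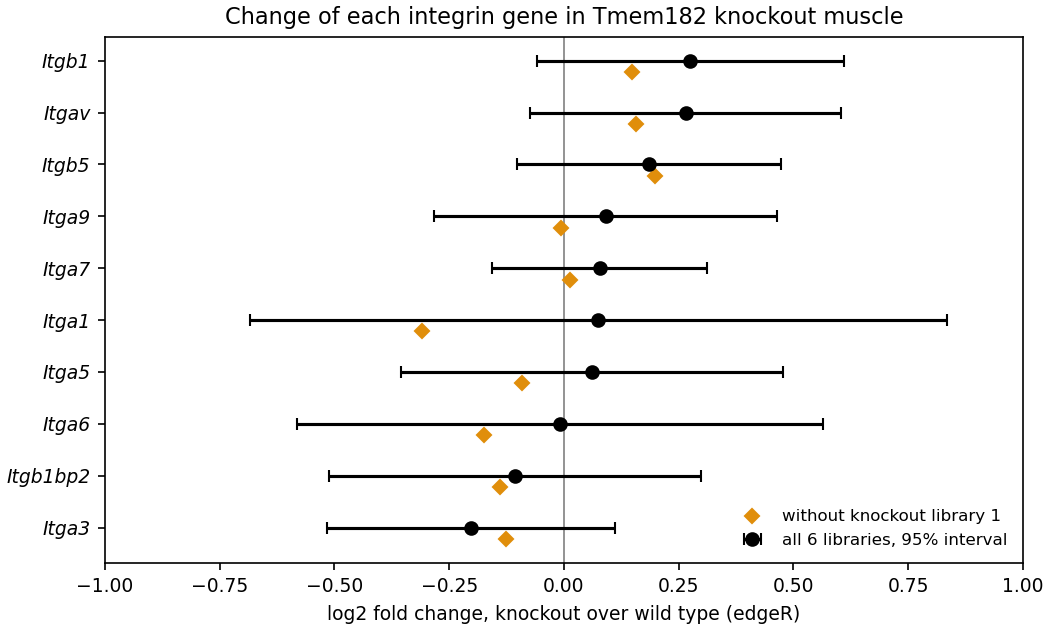
Log2 fold change of each integrin gene, knockout over wild type, from edgeR on expected counts; black points and bars are the estimate and 95% interval from all 6 libraries, orange diamonds the estimate without knockout library 1. Every interval spans 0, and leaving out knockout library 1 takes Itgb1 to 0.15 and Itga1 to -0.31.

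Ratios within a library do not depend on how libraries are scaled. The Itga7 to Itgb1 ratio of FPKM was 0.637, 0.689 and 0.734 in knockout samples, against 0.798, 0.851 and 0.712 in the wild-type libraries. Knockout library 3 lay above wild-type library 3, so the groups overlapped. The log2 ratio differed by -0.20 between the groups, with means of 0.687 ± 0.049 over the knockout libraries, against 0.787 ± 0.070 over the wild-type ones (SD, n = 3 each; two-sided exact permutation p = 0.2). Itga7 made up 59.4%, 60.0% and 64.7% of the summed FPKM of the 7 alpha chains in the knockout, and 57.7%, 63.8% and 60.3% in wild type (exact permutation p = 0.7). Alpha 7 transcripts were thus the majority of these alpha chain transcripts in each of the 6 libraries. Itga6 held 9.20% to 11.5% in the knockout and 8.27% to 13.1% in wild type, and Itga5 8.74% to 10.1% in the knockout and 8.62% to 10.4% in wild type.

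In all, 17 ratios and shares were computed, and the groups did not overlap for 3 of them, each with a two-sided exact permutation p of 0.1, the smallest possible, and 0.486 after adjustment over the 17. The 7 alpha chains summed to 0.704, 0.650 and 0.712 of Itgb1 plus Itgb5 in the knockout and 0.848, 0.769 and 0.726 in wild type, a log2 difference of -0.18, or -0.12 without wild-type library 1. The Itga5 to Itgb1 ratio was 0.108, 0.108 and 0.0991 in the knockout and 0.144, 0.115 and 0.108 in wild type, so that knockout library 1 and wild-type library 3 were nearly equal, and the log2 difference was -0.21, or -0.09 without wild-type library 1. Itgav took 6.18%, 6.00% and 5.96% of the alpha chain sum in the knockout and 5.13%, 4.89% and 5.76% in wild type. The Itgav to Itgb1 ratio, in contrast, was 0.0662, 0.0690 and 0.0676 in the knockout and 0.0709, 0.0652 and 0.0680 in wild type (exact permutation p = 0.9), so that all 6 libraries lay within 0.0652 to 0.0709. Melusin transcripts were 1.81, 1.97 and 2.36 times those of Itgb1 in the knockout and 2.84, 2.26 and 2.75 times in wild type (exact permutation p = 0.2). These are ratios of transcripts and say nothing of which chains paired at the membrane.

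**Figure D3:**
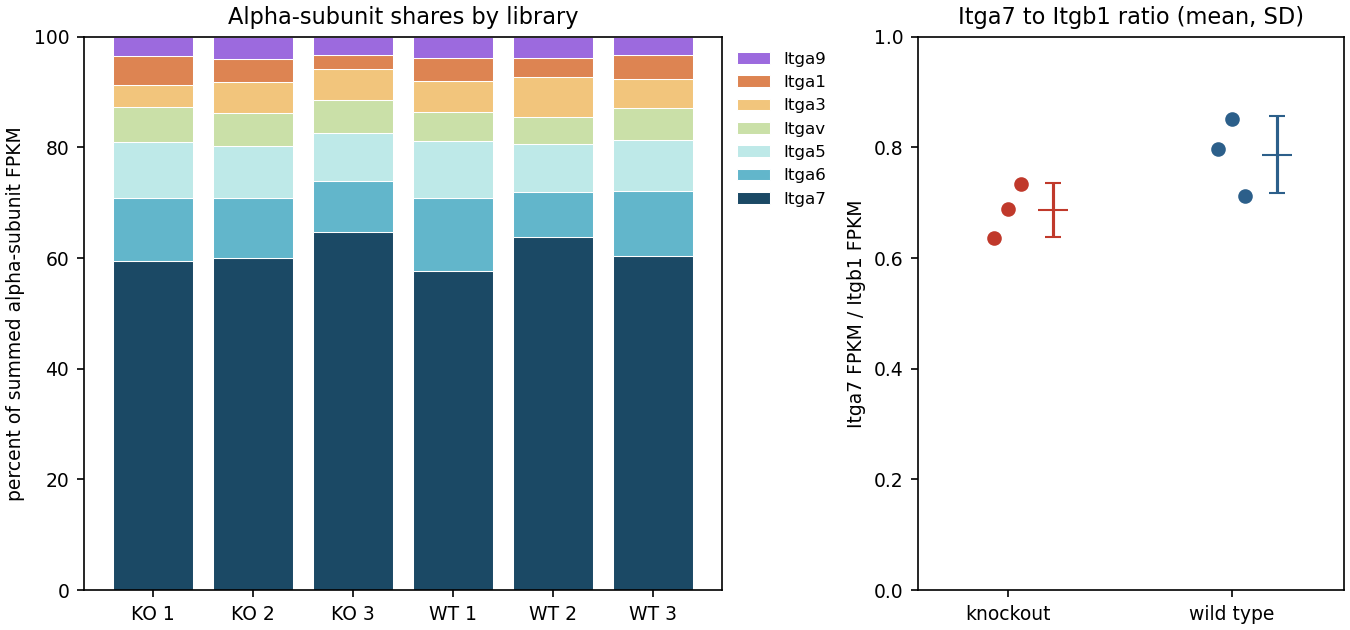
Left, percent of the summed FPKM of the 7 alpha chains taken by each in the 3 knockout (KO) and 3 wild-type (WT) libraries; right, the Itga7 to Itgb1 ratio of FPKM per library, with the group mean and SD beside the points. Itga7 holds 57.7% to 64.7% of the sum in every library, and the ratio averages 0.687 in the knockout and 0.787 in wild type, with overlapping points.

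The log2 CPM of the other 9 genes was correlated with that of Itgb1 over the 6 libraries, with exact permutation of the pairings and adjustment over the 9 relations. Itgav had Pearson's r = 0.98 (permutation p = 0.00972, adjusted 0.0438) and Spearman's rho = 1.0 (permutation p = 0.00278, adjusted 0.025), and r = 0.92 over the 4 libraries left without knockout library 1 and wild-type library 2, the 2 farthest from the median. Itga3 had r = -0.93 (permutation p = 0.00694, adjusted 0.0438) and rho = -0.83 (permutation p = 0.0583, adjusted 0.175), and r = -0.80 over those 4 libraries. This inverse relation depended on the scaling: on log2 FPKM, added after the data were seen, Itga3 had r = -0.11 (permutation p = 0.928, adjusted 0.928) and rho = 0.14 (permutation p = 0.803, adjusted 0.803), and r = 0.68 over the 4 libraries. For Itga7, r = 0.90 (permutation p = 0.0569, adjusted 0.171) and rho = 0.43 (permutation p = 0.419, adjusted 0.629) became r = -0.83 over the 4 libraries, so that relation rested on the 2 left out. Itga1, Itga5, Itga6, Itga9 and Itgb1bp2 also turned from positive to negative there, while on log2 FPKM only Itgb1bp2 of these 5 did, and Itga7 kept r = 0.34. Itgb5 had r = 0.48 (permutation p = 0.318, adjusted 0.409) but rho = 0.94 (permutation p = 0.0167, adjusted 0.075). On log2 FPKM, Itgav had r = 0.99 (permutation p = 0.00417, adjusted 0.0187) and rho = 0.94 (permutation p = 0.0167, adjusted 0.05), with r = 0.93 over the 4 libraries. On that scale Itga5, Itga7 and Itgb5 also passed by r, at 0.86 (permutation p = 0.00694, adjusted 0.0208), 0.93 (permutation p = 0.0139, adjusted 0.0312) and 0.79 (permutation p = 0.00417, adjusted 0.0187). All these values share the same 6 libraries and their scaling.

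Among 10320 tested genes outside the 10 with a mean of at least 1 FPKM, the 5 whose log2 CPM was most like that of Itgb1 were Wdyhv1, Hspa4, Stau2, Egln1 and Cacybp, with r of 0.99 for each over the 6 libraries and of 0.97 to 0.99 without knockout library 1. Hspa4, a heat shock protein of the HSP110 family, was at 30.59, 20.37 and 19.96 FPKM in knockout samples, against 21.48, 16.68 and 20.08 FPKM in wild-type samples. Egln1, an oxygen-sensing prolyl hydroxylase, was at 119.62, 90.49 and 86.31 FPKM in knockout samples, against 94.07, 80.36 and 87.03 FPKM in wild-type samples. The r of Itgav with Itgb1 was reached or passed by 13 of these genes (0.126%), and an r of at least 0.9 by 303 (2.94%).

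The libraries also differed in markers of other cells. Endothelial markers, 10 of 10 detected in every library and with Cdh5, the endothelial cadherin, at 19.92 FPKM or more, summed to 191.3, 122.6 and 88.3 FPKM in knockout samples, against 148.1, 93.1 and 118.0 FPKM in wild-type samples. Over the 6 libraries the mean log2 CPM of these markers was correlated with each of the 10 integrin genes, a list chosen after the data were seen. Only the endothelial list was correlated in this way. Itga1 had r = 0.95 (permutation p = 0.00694, adjusted 0.0648) and rho = 0.94 (permutation p = 0.0167, adjusted 0.0833). Itga5 had r = 0.94 (permutation p = 0.0153, adjusted 0.0648) and rho = 0.94 (permutation p = 0.0167, adjusted 0.0833). Itga6 had r = 0.91 (permutation p = 0.0194, adjusted 0.0648) and rho = 0.83 (permutation p = 0.0583, adjusted 0.146). None of the 10 relations passed 0.05 after adjustment. Without knockout library 3 and wild-type library 2, r was 0.84 for Itga1, 0.89 for Itga5 and 0.61 for Itga6. Itgb1bp2, with r = 0.38 (permutation p = 0.444, adjusted 0.444) and rho = 0.09 (permutation p = 0.919, adjusted 0.919), had the lowest positive r of the 10. The mean log2 CPM of mural and smooth muscle markers was 5.47, 4.93 and 4.86 in the knockout, against 5.22, 4.82 and 5.04 in wild type. In CPM, knockout library 1 and wild-type library 1 were the highest for both lists and for Itga1, Itga5 and Itga6. Whether these genes followed endothelial markers more closely than mural ones was not tested.

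For the other cell types the sums over 10 markers each are given as ranges. Macrophage markers summed to 27.8 to 86.5 FPKM in knockout samples, against 24.7 to 36.0 FPKM in wild-type samples, mural and smooth muscle markers to 135.4 to 232.2 FPKM in knockout samples, against 136.4 to 191.7 FPKM in wild-type samples, and Schwann cell markers to 53.1 to 323.8 FPKM in knockout samples, against 21.2 to 213.6 FPKM in wild-type samples. Markers of fibro-adipogenic progenitors, the mesenchymal cells of muscle, summed to 272.7 to 596.2 FPKM in knockout samples, against 284.4 to 438.3 FPKM in wild-type samples. In these 4 lists knockout library 1 had the highest sum, and all 10 markers of each were above 0 in every library. Tenocyte markers summed to 99.1 to 269.4 FPKM in knockout samples, against 97.1 to 283.0 FPKM in wild-type samples, and satellite cell markers to 22.3 to 31.99 FPKM in knockout samples, against 25.5 to 31.0 FPKM in wild-type samples. On the TMM-scaled scale the mean log2 CPM of the satellite cell markers was 2.385, 2.196 and 2.114 in the knockout, against 2.62, 2.47 and 2.44 in wild type, with no overlap. The FPKM sums of the same markers did overlap. Taken singly, 2 of the 9 tested were lower without overlap in CPM, as were 4.51% of all genes. Of the 9 tested, 8 were below 0, with a median of -0.25, where 51.1% of all genes were above 0. At an unadjusted p under 0.05 (edgeR) 2 of them were lower, as were 1.48% of all genes, and 0 passed over all genes. Other lists also went 1 way. All 10 macrophage, fibro-adipogenic progenitor and Schwann cell markers were above 0, and all 10 tenocyte markers below. Much of this rested on knockout library 1. Without it the median log2 fold change went from 0.58 to 0.20 for macrophage and from 0.27 to 0.08 for fibro-adipogenic progenitor markers. That of Schwann cell markers turned from 0.58 to -0.18, and that of tenocyte markers went from -0.41 to -0.79. At an unadjusted p under 0.05 (edgeR, all 6 libraries) 2 macrophage, 2 adipocyte and 1 fibro-adipogenic progenitor marker were higher, as were 2.07% of all genes. Slow fibre genes varied most, from 112.7 to 2831.7 FPKM in knockout samples, against 92.3 to 867.0 FPKM in wild-type samples, beside fast fibre genes at 65435 to 98652 FPKM in knockout samples, against 87990.5 to 99680 FPKM in wild-type samples. All 10 slow fibre genes were above 0, with a median log2 fold change of 1.49, or 0.93 without knockout library 1. Of the 10 fast fibre genes 9 were below 0, with a median of -0.21, or 0.04 without that library. Adipocyte markers summed to 1409.3 to 2260.7 FPKM in knockout samples, against 1663.6 to 2423.3 FPKM in wild-type samples, most of it Car3, which muscle fibres also make. The other adipocyte markers did not follow that sum: 9 of the 10, all but Car3, were highest in knockout library 1. Of the 9 tested, Car3 included, 8 were above 0, where 51.1% of all genes were. The median log2 fold change of those 9 was 1.23, or 0.38 without knockout library 1, and that of Car3 was -0.07. The mean log2 CPM of the list was 4.77, 2.90 and 4.03 in the knockout, against 3.39, 3.35 and 2.95 in wild type. The 9 erythrocyte markers listed summed to 501.8 to 1947.3 FPKM in knockout samples, against 851.2 to 1157.4 FPKM in wild-type samples, and other leukocyte markers to at most 1.63 FPKM in any library, with 2 of 10 high enough to be tested. Of the 7 erythrocyte markers tested, 6 were below 0, with a median of -0.10, or -0.73 without knockout library 1. The part of these cells in the integrin values was not tested.

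**Figure D4:**
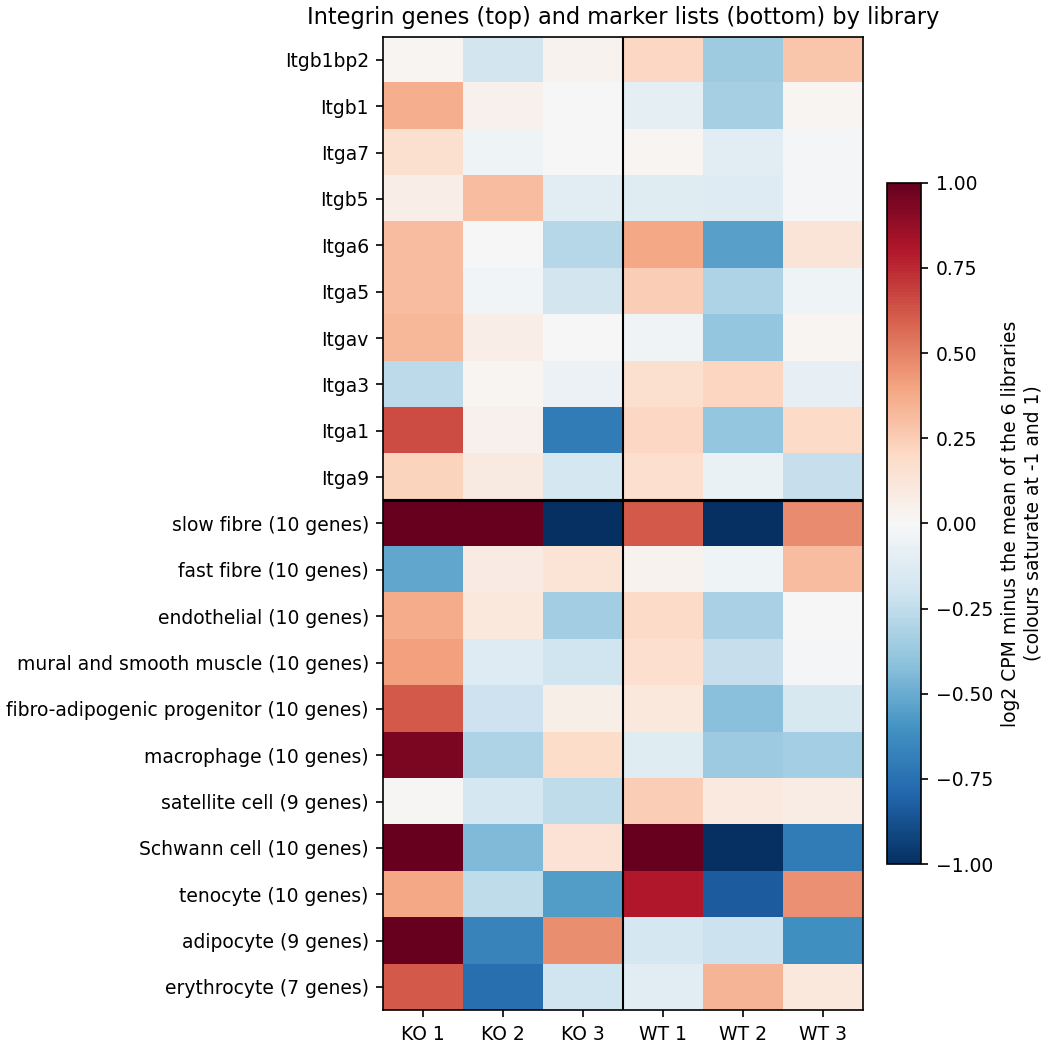
Log2 CPM of the 10 integrin genes (above the line) and mean log2 CPM of 11 marker lists (below it), each as its deviation from the mean of the 6 libraries; knockout (KO) libraries are left of wild-type (WT) libraries, and colours saturate at -1 and 1. Knockout library 1 is high for most integrin genes and for endothelial, mural, macrophage and Schwann cell lists, while wild-type library 2 is low for most of them.

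Of 17 integrin subunits outside the 10, 12 could be tested and 0 passed in either direction, with 7 above 0, 5 below 0 and a median of 0.08 on the log2 scale (-0.05 without knockout library 1). In 1 of the 12 the groups did not overlap, beside 9.21% of all genes. That gene was Itgb7, the beta 7 chain of lymphocyte homing receptors, at 0.71, 0.56 and 0.41 FPKM in knockout samples, against 0.34, 0.22 and 0.21 FPKM in wild-type samples. These Itgb7 values rest on few counts, 31, 27 and 20 in knockout samples, against 16, 11 and 10 in wild-type samples. Its log2 fold change was 1.06 (SE 0.30, unadjusted p = 0.00805, edgeR adjusted p = 0.994) and 0.98 without knockout library 1. The leukocyte chains Itgam and Itgb2 were at 1.12, 0.34 and 0.34 and at 1.21, 0.36 and 0.43 FPKM in knockout samples, against 0.38, 0.32 and 0.21 and 0.31, 0.39 and 0.43 FPKM in wild-type samples. Their log2 fold changes of 0.85 (SE 0.44) and 0.64 (SE 0.43) were 0.22 and 0.06 without knockout library 1. Itgb4, the hemidesmosome chain that pairs with alpha 6, was at 4.96, 1.26 and 1.11 FPKM in knockout samples, against 1.85, 0.92 and 0.87 FPKM in wild-type samples (log2 fold change 0.87, SE 0.51, or 0.03 without knockout library 1). Itgb6, an epithelial partner of alpha v, was at 6.58, 4.89 and 4.53 FPKM in knockout samples, against 5.77, 3.32 and 5.50 FPKM in wild-type samples (log2 fold change 0.05, SE 0.19; picked after its values were seen), above Itgav itself in each of the 6 libraries. Itga2, Itgad, Itgae, Itgax and Itgb8 were too low to be tested.

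Of 23 genes of matrix ligands 22 were tested and 0 passed, with 15 above 0, 7 below 0 and a median of 0.19 on the log2 scale, or -0.10 without knockout library 1. Lama2, the alpha 2 chain of the muscle laminin bound by alpha 7 beta 1, was at 7.55, 4.36 and 4.42 FPKM in knockout samples, against 4.41, 3.72 and 4.19 FPKM in wild-type samples (log2 fold change 0.31, SE 0.15, edgeR adjusted p = 0.994), or 0.14 on the log2 scale without knockout library 1. Tnc, tenascin C, a ligand of alpha 9 beta 1, was at 1.87, 1.16 and 0.75 FPKM in knockout samples, against 2.21, 2.01 and 1.99 FPKM in wild-type samples. The groups did not overlap, and the log2 fold change of Tnc was -0.80 (SE 0.23, unadjusted p = 0.00969, edgeR adjusted p = 0.994), or -1.06 without knockout library 1. Col3a1, a fibrillar collagen, differed by 0.45 on the log2 scale (SE 0.22), or 0.24 without knockout library 1. Lamb3, a laminin chain of epithelia, differed by 2.08 (SE 0.90) and by 0.63 without that library, and was at 1.17 FPKM in that library and at most 0.21 FPKM in the other 5. In CPM the groups did not overlap for 1 higher gene, Lama2, whose FPKM did overlap, and 1 lower gene, Tnc, where 4.7% of all genes were higher and 4.51% lower without overlap. Lama1 was too low to be tested.

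Of 32 activators, adaptors and kinases that act at the integrin tail, 31 were tested and 0 passed, with 13 above 0, 18 below 0 and a median of -0.01 on the log2 scale (-0.12 without knockout library 1). Tln1, Tln2, Fermt2 and Ilk are given for their roles and were picked after their values were seen. Talin 1 and 2 (Tln1, Tln2) and kindlin 2 (Fermt2), which switch integrins to the high-affinity state, stayed close to 0, at log2 differences of -0.01 for Tln1 (SE 0.14), 0.07 for Tln2 (SE 0.15) and 0.07 for Fermt2 (SE 0.14). Integrin-linked kinase (Ilk) was at -0.10 (SE 0.10). The smallest p in this list was that of Lims1, the adaptor PINCH1 that binds Ilk, at 14.70, 8.19 and 7.55 FPKM in knockout samples, against 8.70, 5.80 and 6.90 FPKM in wild-type samples (log2 fold change 0.41, SE 0.20, or 0.19 without knockout library 1). Paxillin (Pxn) was at 32.49, 30.80 and 32.62 FPKM in knockout samples, against 38.01, 36.05 and 32.46 FPKM in wild-type samples (log2 fold change -0.22, SE 0.12, or -0.12 without knockout library 1). Nisch, which binds alpha 5, differed by -0.14 on the log2 scale (SE 0.10), and Dab2, an endocytic adaptor, by 0.23 (SE 0.18), or 0.03 without knockout library 1. Ptk2, focal adhesion kinase, named after its values were seen, was the 1 gene of the 31 whose CPM did not overlap between the groups. It was lower in the knockout (log2 fold change -0.10, SE 0.08), beside 4.51% of all genes. Its FPKM did overlap, at 8.10, 7.02 and 6.94 in knockout samples, against 8.08, 7.38 and 7.19 in wild-type samples. Fermt1 was too low to be tested.

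Of 18 membrane partners and trafficking genes 17 were tested and 0 passed, with 11 above 0, 6 below 0 and a median of 0.05 on the log2 scale. Cd151, a tetraspanin that binds laminin-binding integrins directly, was at 52.30, 42.40 and 40.11 FPKM in knockout samples, against 38.59, 38.86 and 30.93 FPKM in wild-type samples. All 3 knockout libraries lay above all 3 wild-type libraries, with a log2 fold change of 0.25 (SE 0.10, 95% interval 0.01 to 0.48, unadjusted p = 0.0409, edgeR adjusted p = 0.994) and of 0.23 without knockout library 1. Rab21, a GTPase of integrin endocytosis, was the other of the 2 genes among the 17 whose groups did not overlap in CPM, both higher, beside 4.7% of all genes (log2 fold change 0.10, SE 0.09). Cd82, another tetraspanin gene, differed by 0.41 on the log2 scale (SE 0.23), or by 0.23 without wild-type library 1 and 0.62 without wild-type library 2. Adam12, a disintegrin metalloprotease gene, differed by 0.83 (SE 0.44), or 0.30 without knockout library 1, and reached at most 0.32 FPKM in any library. Acap1 was too low to be tested.

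**Figure D5:**
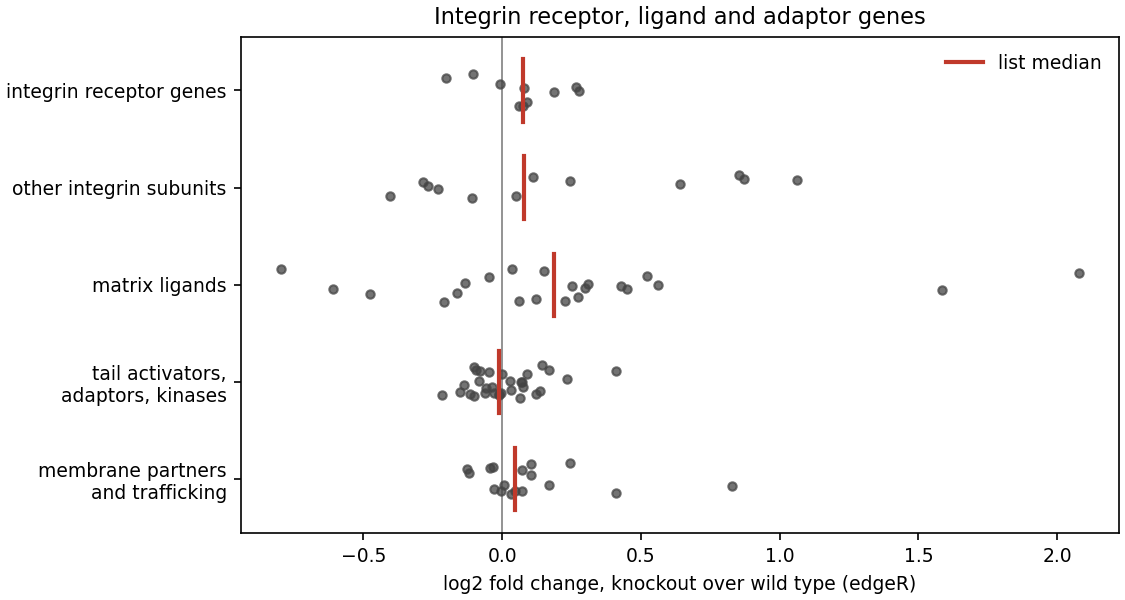
Log2 fold change, knockout over wild type, of each tested gene in the integrin receptor group and in 4 lists of related genes; points are genes, jittered vertically, and red lines are list medians. The medians are 0.08, 0.08, 0.19, -0.01 and 0.05 from top to bottom, and no gene in the plot passed the test over all genes.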

How the data were processed

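RNA from 3 knockout and 3 wild-type gastrocnemius samples was sequenced on a BGISEQ-500, and 1 table per sample was deposited. Per the file headers, each table gives the authors' read count and expression value per gene; 26.2% to 27.5% of the deposited counts are not whole, so they were treated like estimated counts, and the expression values are FPKM as deposited by the authors. The submitters' processing notes name HISAT2 2.0.4, Bowtie2 2.2.5, RSEM 1.2.12 and GRCm38; the sources used here give no annotation, strand setting or read filter.

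Expected counts were rounded to whole numbers, and genes were kept by filterByExpr (minimum count 10). Groups were compared with edgeR 4.0.16 (TMM, quasi-likelihood test, Benjamini-Hochberg threshold 0.05 over 12775 genes) in R 4.3.3; the SE is the size of the log2 fold change divided by the root of F. Ratios were compared by two-sided exact permutation. Alternatives were DESeq2 1.42.0, other scaling, no filter, limma 3.58.1 on log2(FPKM + 1) and log2(FPKM + 0.1), voom with quality weights, a replicate block and leaving out each library. The fit was tested on 3 simulated data sets with 200 changed genes each. There edgeR called 58.7% of 2-fold and 90.3% of 4-fold changes, with 11 false calls on average. Apart from the changed genes, the simulated libraries shared 1 expression profile, and genes varied independently. None stood apart as knockout library 1 did, so these rates may not hold for the real libraries. No library duplicated another: the lowest chi-square per degree of freedom between libraries was 13.6. Positions are from GENCODE M21.

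The integrin genes and all lists (other subunits, matrix ligands, tail proteins, membrane partners, fibre types and cell markers) were chosen with earlier results of these data known. Genes named from each list of related genes are up to 4 with the smallest unadjusted p, plus the 5 genes most like Itgb1 in log2 CPM with a mean of at least 1 FPKM, except where stated.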

Additional observations from a re-analysis of the deposited data

How the results depend on the processing

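None of the 10 integrin genes passed the threshold in any of the 14 alternatives, with adjusted p from 0.658 to 1.0. The count of all genes called was 1 by edgeR and 6 by DESeq2 (Egr1, Igf2, Neto2, Tmem182, Peg3 and Tbx1), and ran from 0 to 1 when single libraries were left out, being 0 without knockout library 2 or wild-type library 3. Signs near 0 turned. Itga6 (-0.01) was 0.074 with library totals only, 0.076 and 0.062 by limma with pseudocounts of 0.1 and 1, and 0.016 with the replicate block, and ran from -0.23 to 0.20 with single libraries left out. Itga1 was -0.24 and Itga5 -0.058 by voom with quality weights, and with single libraries left out they ran from -0.31 to 0.35 and from -0.091 to 0.21. Itga9 ran from -0.0063 to 0.20 and Itgb1bp2 from -0.28 to 0.0100. The difference in the Itga7 share ran from -0.924 to 2.33 percentage points. Itgb1 (0.12 to 0.37), Itgav (0.12 to 0.35), Itgb5 (0.07 to 0.28), Itga7 (0.01 to 0.16) and Itga3 (-0.29 to -0.07) kept their sign in all 14. With single libraries left out, the Itga7 to Itgb1 difference ran from -0.26 to -0.14, that of Itga5 to Itgb1 from -0.29 to -0.09 and that of the summed alpha chains from -0.23 to -0.12, while the Itgav share differed by 0.602 to 1.04 percentage points. On log2 FPKM in place of log2 CPM, the r of Itga3 with Itgb1 was -0.11. The cause of these shifts was not tested. Whether library numbers pair the samples cannot be told from these libraries. Deviations of same-numbered libraries correlated at 0.52, 0.18 and -0.12, and those of the other pairings at -0.47 to 0.43. With the replicate block, 1 gene and 0 integrin genes were called. The Itga7 to Itgb1 difference of -0.20 cannot change with this block, as each block holds 1 library of each group. Its exact permutation p was 0.5 with the block, against 0.2 without it. Library totals only moved the median of all genes to 0.08. With 3 libraries a group, the 95% intervals of the 10 genes were 0.23 to 0.76 log2 units wide to each side.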
